A study of Homo sapiens with 54 samples.

Results

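Levels of 10 genes of the Wnt signalling pathway were described in xenograft tumours of the human prostate cancer cell line LNCaP. The genes were chosen by name: the ligands WNT5A and WNT11, the receptor ROR1, the R-spondin receptor LGR5, the ubiquitin ligases RNF43 and ZNRF3, the feedback inhibitors AXIN2 and NKD1, and the DNA-binding factors LEF1 and TCF7. All 10 were found among the 60642 gene symbols of the table. Of these genes, RNF43, ZNRF3, AXIN2, LEF1, WNT5A, ROR1 and NKD1 were expressed at a level that allowed a test, while TCF7 and WNT11 stayed low in nearly every tumour and LGR5 was at or next to 0 in all of them.

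In the canonical branch of the pathway, Wnt ligands bind Frizzled receptors and the co-receptors LRP5 and LRP6, the complex that destroys β-catenin is held back, and β-catenin joins TCF and LEF factors on DNA. Several genes switched on in this way, AXIN2, NKD1, RNF43 and ZNRF3 among them, encode inhibitors of the pathway, so their RNA is widely read as a sign of its activity. WNT5A, WNT11 and the ROR receptors act mainly in branches that do not use β-catenin, and Wnt signalling has been tied to resistance against antiandrogens in prostate cancer.

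RNA was sequenced from 54 tumours grown from LNCaP cells under the skin of male NOD-SCID mice, a strain without functional T and B cells. LNCaP clone FGC is an androgen-sensitive line from 1 clone, so the tumours are repeats of the same cells in different hosts and not different cancers. Every mouse gave 1 tumour, and tumours are named here by mouse number. PRE-CX tumours (n = 9) came from mice given mock surgery at about 200 mm3 and were taken at 1000 mm3. All other mice were castrated by surgery at about 200 mm3. POST-CX tumours (n = 8) were taken 1 week after castration, at the lowest serum prostate-specific antigen (PSA), and CRPC tumours (n = 10) when PSA was back at its level before castration or at 1000 mm3. The remaining castrated mice were given enzalutamide, an antiandrogen that binds the androgen receptor, at 10 mg/kg by oral gavage on 5 days a week from the time PSA rose again. Their tumours were taken at the second PSA low point, while the tumour responded (ENZS, n = 12), or after PSA had climbed again or the tumour had reached 1000 mm3 on the drug (ENZR, n = 15).

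The values were transcript abundances on the TPM scale (length-corrected, relative to the library), so that levels of different genes can be set side by side. Human genes made up 12.1% to 97.5% of the TPM of a tumour (median 89.9%). In 2 tumours they made up less than 50%, POST-CX mouse 91 at 27.9% and ENZR mouse 87 at 12.1%, and ENZR mouse 87 held the lowest level of its group for 8 of the 10 genes. Results are therefore given for TPM as deposited and, where a call changed, for TPM rescaled so that the human genes of each tumour sum to 1000000. All 9 markers of prostate epithelium passed the expression filter, with PSA (KLK3) at a median of 3868 TPM in PRE-CX and 1126 TPM in ENZR. Of 10 fibroblast markers 5 passed the filter, and the summed level of all 10 was 6.39 to 14.99 TPM in PRE-CX, 6.18 to 28.64 in POST-CX, 12.24 to 92.53 in CRPC, 17.94 to 234.74 in ENZS and 6.29 to 78.55 in ENZR, with COL1A2, PDGFRA and POSTN at a median under 0.1 TPM. Between ENZS and PRE-CX, COL3A1, DCN, LUM and ACTA2 were higher by 0.87 to 2.92 on the log2 scale, while COL1A1 did not pass at 0.25 and the mean of FBLN1, which was not tested, was 0.598 TPM in PRE-CX and 0.179 in ENZS. Of 7 endothelial markers 1 passed the filter (VWF), the summed level had a median of 4.48 TPM in PRE-CX and 1.13 to 3.01 in the other groups (range over all tumours 0.1 to 7.43), PECAM1 and CDH5 were near 0, and VWF was lower in ENZS by -0.98 (adjusted p 0.000764, limma). Of 11 blood cell markers 2 passed (CD68 and CD8A), the summed level had a median of 1.80 TPM in PRE-CX, 4.91 in ENZS and 3.76 in ENZR (range 0.90 to 12.64), PTPRC and CD3E were near 0, and CD68 and CD8A were higher in ENZS by 1.27 and 0.59 (adjusted p 0.00148 and 0.00192, limma). CD8A and DCN reached 1 TPM in 0 of 9 PRE-CX tumours and LUM in 1. These 3 genes passed the filter only or mainly through castrated or treated tumours, where they were higher, so their test results carry this limit. The part of all the markers above in the results below was not tested. The values are of human genes, while the host's own fibroblasts, vessels and blood cells are mouse cells. These markers therefore do not measure the number of such host cells, and the origin of their human signal was not tested. For the human cells of such bulk samples, fewer cells and less RNA per cell cannot be told apart.

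Promoters are shown for LEF1 and RNF43, which were higher in ENZS and ENZR than in PRE-CX, and for ROR1, which was lower. These genes carry differences described below, and RNF43 and ROR1 differed from PRE-CX in CRPC, without the drug, as well. The promoters run from 250 bases before to 50 bases after a RefSeq transcription start (build GRCh38.p14), 5′ to 3′ on the strand of the gene. Entries were present for 5 of the 10 genes (LEF1, TCF7, RNF43, WNT5A and ROR1), and RNF43, WNT5A and TCF7 had more than 1 start. The LEF1 window, like those of WNT5A and TCF7, lies inside the RefSeq span of its gene and so marks an internal start. Windows at the outer ends of these genes were not searched. Capitals mark matches to AGAACA, the half-site that the androgen receptor recognises, in either orientation (AGAACA or TGTTCT). The core TCF/LEF motif, CTTTGA or its reverse complement TCAAAG, was searched as well, and these letters did not occur in the windows of these 5 genes, so no match of one motif overlapped one of the other.
LEF1, chr4:108166252-108166551, minus strand: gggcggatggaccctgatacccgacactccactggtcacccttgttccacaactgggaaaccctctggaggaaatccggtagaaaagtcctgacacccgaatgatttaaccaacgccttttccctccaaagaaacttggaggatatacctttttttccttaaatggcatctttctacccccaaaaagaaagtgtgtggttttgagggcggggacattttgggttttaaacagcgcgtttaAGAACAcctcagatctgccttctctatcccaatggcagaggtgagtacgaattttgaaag
RNF43, chr17:58417485-58417784, minus strand: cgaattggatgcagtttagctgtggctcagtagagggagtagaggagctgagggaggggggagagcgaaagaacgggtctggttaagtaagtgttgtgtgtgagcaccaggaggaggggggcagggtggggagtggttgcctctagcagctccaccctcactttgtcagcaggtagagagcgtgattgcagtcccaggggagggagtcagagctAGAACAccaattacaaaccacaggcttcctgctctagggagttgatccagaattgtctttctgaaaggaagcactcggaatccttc
ROR1, chr1:63773767-63774066, plus strand: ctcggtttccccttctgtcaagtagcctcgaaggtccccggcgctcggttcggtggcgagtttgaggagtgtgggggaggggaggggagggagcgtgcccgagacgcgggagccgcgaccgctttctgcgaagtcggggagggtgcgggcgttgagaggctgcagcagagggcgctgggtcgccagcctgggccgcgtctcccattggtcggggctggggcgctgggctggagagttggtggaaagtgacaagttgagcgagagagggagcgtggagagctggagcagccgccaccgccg
The printed LEF1 and RNF43 windows each held 1 androgen receptor half-site and the ROR1 window none. The window at the other RNF43 start, which is not printed, held none either, and of the TCF7 windows 1 held 1 half-site and the other none. Of all 35116 promoter windows of the same length, 14.8% held that half-site and 12.9% held the TCF/LEF core. These matches describe the letters of the window and do not show binding.

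The genes differed widely in level. RNF43 (chromosome 17, 58352500 to 58417534) had the highest median over all tumours, at 11.4 TPM with a range of 0.97 to 26.99. ZNRF3 (chromosome 22, 28883572 to 29057488) followed with a median of 5.35 TPM, WNT5A (chromosome 3, 55465715 to 55505263) with 3.07, AXIN2 (chromosome 17, 65528563 to 65561648) with 2.75 and LEF1 (chromosome 4, 108047548 to 108168932) with 1.87. These 5 genes reached 1 TPM in 43 to 53 of the 54 tumours. ROR1 (chromosome 1, 63774017 to 64181498) had a median of 0.975 TPM and reached 1 TPM in 27 tumours, and NKD1 (chromosome 16, 50548396 to 50649249) had a median of 0.805 TPM and reached 1 TPM in 11. The other 3 genes did not pass the filter of 1 TPM in at least 8 tumours. TCF7 (chromosome 5, 134108218 to 134148210) reached 1 TPM in 1 tumour, WNT11 (chromosome 11, 76186325 to 76210761) in 4, and LGR5 (chromosome 12, 71439129 to 71586310) in 0, where it was listed at 0 in 41 tumours and never above 0.03 TPM. Coordinates are those of RefSeq on GRCh38.p14, and the authors aligned to GRCh38. When the groups were ordered by mean TPM for each gene, the ranges of neighbouring groups overlapped in all 40 neighbouring pairs, and so did their intervals of mean ± SD.

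**Figure D1:**
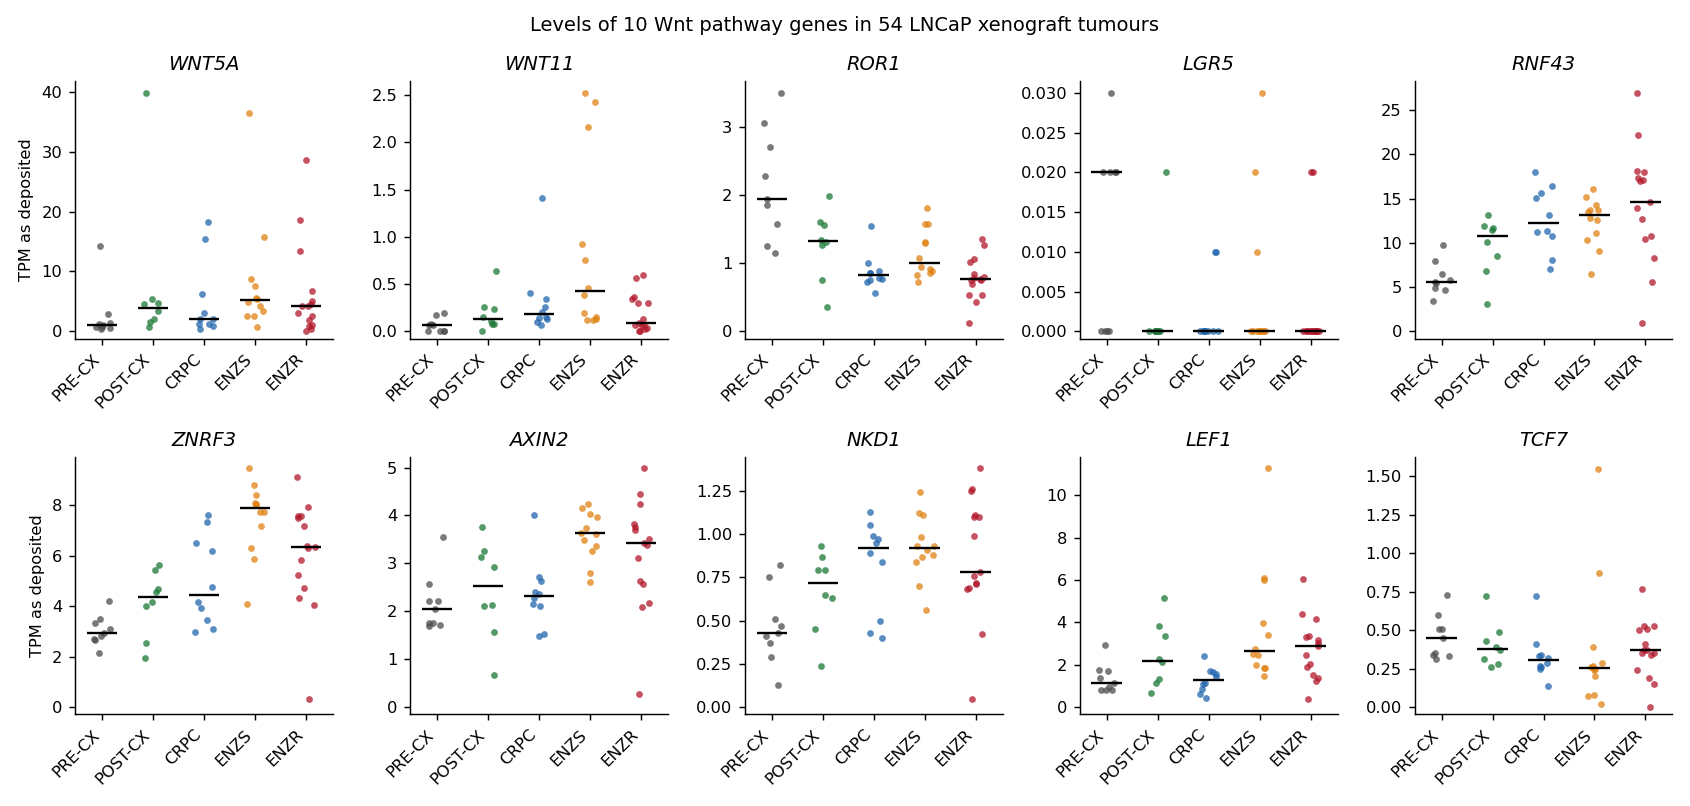
TPM as deposited of the 10 Wnt pathway genes (vertical axes, linear, a separate scale for each gene) in each tumour of the 5 groups (horizontal axes). Each point is a tumour and each bar the group median; RNF43 and ZNRF3 lie higher in most castrated and treated tumours than in PRE-CX, ROR1 lies lower, and the lowest ENZR point in 8 of the 10 panels is mouse 87.

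WNT5A, the best-known ligand of the β-catenin-independent branch, had the highest coefficient of variation of the 7 tested genes in each group, from 119% in ENZS to 169% in PRE-CX. It ranged from 0.37 to 14.18 TPM in PRE-CX (median 1.16), from 0.72 to 39.77 in POST-CX (median 3.97), from 0.49 to 18.19 in CRPC (median 2.04), from 0.71 to 36.41 in ENZS (median 5.23) and from 0.12 to 28.67 in ENZR (median 4.19). A few tumours held the highest levels in each group: POST-CX mouse 99, ENZS mouse 17 and ENZR mouse 75 were the highest of their groups, and 1 or 2 tumours of each castrated or treated group lay above the PRE-CX range. By contrast, 11 of 12 ENZS tumours lay above the PRE-CX median. The log2 difference between ENZS and PRE-CX was 1.36 (SE 0.51 and adjusted p 0.0289 by limma), and its adjusted p over the 8 alternatives ranged from 0.00638 to 0.0644. It was lost with median centring (adjusted p 0.0612, limma) and with no expression filter (adjusted p 0.0644, limma), and on leaving out PRE-CX mouse 5, 9 or 62 or ENZS mouse 17 or 28 (log2 differences 1.14 to 1.29, limma adjusted p 0.0504 to 0.0658). In the other comparisons WNT5A did not pass as deposited, with log2 differences from PRE-CX of 1.01 (SE 0.56) in POST-CX, 0.67 (SE 0.53) in CRPC and 0.90 (SE 0.49) in ENZR. In ENZR it passed under 2 of the 8 alternatives (limma adjusted p 0.00866 to 0.267 across them). In POST-CX it passed under 1 (0.0212 to 0.523) and in CRPC under 0 (0.0590 to 0.724).

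WNT11, a ligand known from cell movement in the embryo, was near 0 in intact mice and reached its highest levels in a few ENZS tumours. It ranged from 0 to 0.19 TPM in PRE-CX (median 0.07), from 0 to 0.64 in POST-CX (median 0.13), from 0.07 to 1.41 in CRPC (median 0.18), from 0.12 to 2.52 in ENZS (median 0.425) and from 0 to 0.60 in ENZR (median 0.09). All 12 ENZS tumours lay above the PRE-CX median and 7 above its range, with ENZS mice 28, 17 and 76 at 2.52, 2.42 and 2.16 TPM. It was left out by the expression filter. With no filter it passed between ENZS and PRE-CX at a log2 difference of 0.66 (SE 0.16 and adjusted p 0.00201 by limma) and in no other comparison. ENZR tumours all lay below those 3 ENZS tumours, yet the log2 difference of -0.51 between ENZR and ENZS did not pass (SE 0.14 and adjusted p 0.258 by limma).

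ROR1, a receptor tyrosine kinase family member that binds WNT5A, was the only gene of the 10 that was lower outside PRE-CX at an adjusted p under 0.05. It ranged from 1.15 to 3.50 TPM in PRE-CX (median 1.94), from 0.36 to 1.98 in POST-CX (median 1.33), from 0.56 to 1.55 in CRPC (median 0.82), from 0.72 to 1.81 in ENZS (median 1.01) and from 0.12 to 1.36 in ENZR (median 0.77). Below the whole PRE-CX range lay 9 of 10 CRPC tumours, 7 of 12 ENZS tumours and 13 of 15 ENZR tumours. The log2 difference from PRE-CX was -0.72 in CRPC (SE 0.14 and adjusted p 0.000432 by limma), -0.53 in ENZS (SE 0.14 and adjusted p 0.00156 by limma) and -0.80 in ENZR (SE 0.13 and adjusted p 3.32e-06 by limma). ROR1 passed in these 3 comparisons under each of the 8 alternatives. In POST-CX it was at -0.46 (SE 0.15 and adjusted p 0.0626 by limma), and it passed there with rescaled TPM at -0.36 (adjusted p 0.0408 by limma, and 0.0408 to 0.146 across the 8 alternatives) and on leaving out PRE-CX mouse 9 or 67, POST-CX mouse 86 or ENZR mouse 87.

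ROR2, the paralogue of ROR1 and likewise a receptor of WNT5A, is not one of the 10 genes but was measured beside it in the receptor list and went the other way. It ranged from 0.01 to 0.52 TPM in PRE-CX (median 0.09), from 0.76 to 2.11 in POST-CX (median 1.19), from 0.78 to 5.84 in CRPC (median 2.21), from 3.48 to 11.23 in ENZS (median 5.70) and from 0.40 to 11.72 in ENZR (median 5.98). No tumour of POST-CX, CRPC or ENZS overlapped the PRE-CX range, and 14 of 15 ENZR tumours lay above it. The share of all genes separated in this way was not counted. ROR2 was named because its differences were among the largest that passed, so this separation is not independent of that choice. As PRE-CX tumours all stayed below 1 TPM, ROR2 passed the filter only through castrated or treated tumours, where it was higher. The test results that follow carry this limit. The log2 difference from PRE-CX was 1.01 in POST-CX (SE 0.29 and adjusted p 0.0267 by limma), 1.497 in CRPC (SE 0.27 and adjusted p 0.000113 by limma), 2.63 in ENZS (SE 0.26 and adjusted p 1.02e-11 by limma) and 2.36 in ENZR (SE 0.25 and adjusted p 6.77e-11 by limma). Within a tumour, which removes the factor shared by its human genes, ROR2 made up 0.629% to 14.5% of the summed ROR1 and ROR2 TPM in PRE-CX, 33.8% to 79.2% in POST-CX, 47.1% to 88.4% in CRPC, 67.4% to 93.8% in ENZS and 68.8% to 93.7% in ENZR. The highest POST-CX share was that of mouse 91, one of the 2 tumours under 50% human. ROR2 was above ROR1 in 0 of 9 PRE-CX, 4 of 8 POST-CX, 9 of 10 CRPC, 12 of 12 ENZS and 15 of 15 ENZR tumours.

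**Figure D2:**
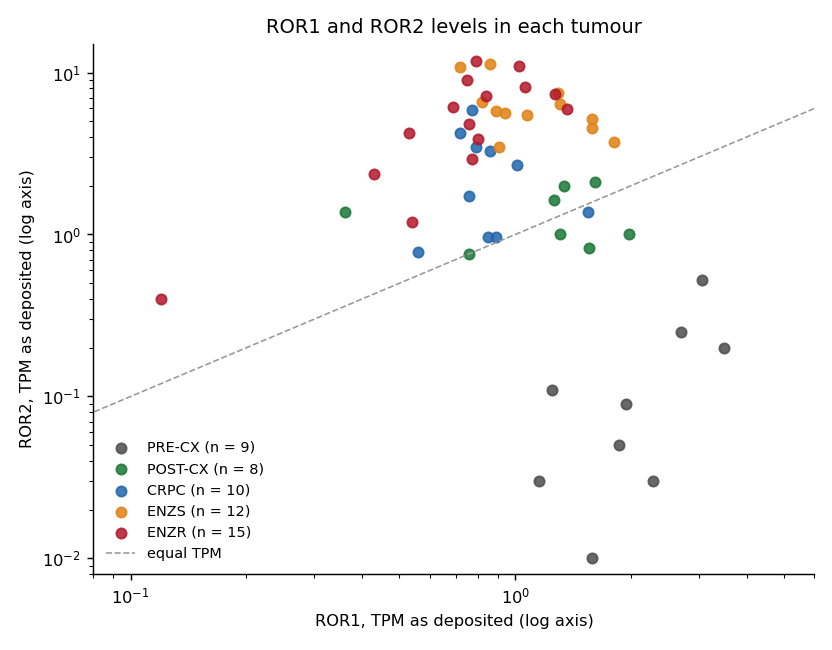
ROR2 against ROR1 in each of the 54 tumours, both as TPM on log axes, coloured by group, with a dashed line where the levels are equal. All 9 PRE-CX tumours lie below the line and all 12 ENZS and 15 ENZR tumours lie above it; the ENZR tumour at the far left is mouse 87.

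The R-spondin arm of the pathway controls how many Frizzled receptors sit on the cell surface: RNF43 and ZNRF3 mark them for removal, and R-spondins bound to LGR receptors clear these ligases away. RNF43 ranged from 3.43 to 9.76 TPM in PRE-CX (median 5.60), from 3.13 to 13.17 in POST-CX (median 10.8), from 7.02 to 18.06 in CRPC (median 12.2), from 6.54 to 16.06 in ENZS (median 13.2) and from 0.97 to 26.99 in ENZR (median 14.6). Above the PRE-CX range lay 5 of 8 POST-CX, 8 of 10 CRPC, 10 of 12 ENZS and 12 of 15 ENZR tumours. Its mean was 6.01 ± 1.87 TPM in PRE-CX (SD, n = 9) and 12.7 ± 3.63 in CRPC (n = 10), and the log2 difference from PRE-CX was 0.96 in CRPC (SE 0.27 and adjusted p 0.0187 by limma), 0.95 in ENZS (SE 0.26 and adjusted p 0.00298 by limma) and 0.97 in ENZR (SE 0.25 and adjusted p 0.00220 by limma). RNF43 passed in these 3 comparisons under each of the 8 alternatives. In POST-CX it was at 0.56 (SE 0.29 and adjusted p 0.306 by limma) as deposited and at 0.74 without the 2 tumours under 50% human (adjusted p 0.0114 by limma, and 7.29e-07 to 0.452 across the 8 alternatives).

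ZNRF3, the paralogue of RNF43, had its highest levels under enzalutamide. It ranged from 2.14 to 4.21 TPM in PRE-CX (median 2.95), from 1.95 to 5.65 in POST-CX (median 4.38), from 2.96 to 7.63 in CRPC (median 4.47), from 4.07 to 9.47 in ENZS (median 7.88) and from 0.33 to 9.13 in ENZR (median 6.35). Above the PRE-CX range lay 11 of 12 ENZS and 13 of 15 ENZR tumours. The mean was 3.04 ± 0.588 TPM in PRE-CX (SD, n = 9) and 7.48 ± 1.46 in ENZS (n = 12), a log2 difference of 1.06 (SE 0.21 and adjusted p 4.90e-05 by limma), and the difference between ENZR and PRE-CX was 0.70 (SE 0.20 and adjusted p 0.00551 by limma). Both passed under each of the 8 alternatives. Between CRPC and PRE-CX it was at 0.53 (SE 0.22 and adjusted p 0.139 by limma), and leaving out ENZR mouse 87, which belongs to neither group but enters the shared estimate of the spread, gave an adjusted p of 0.0147 with the same difference by limma. LGR5, an R-spondin receptor known as a marker of intestinal stem cells, was listed at 0 in 4 of 9 PRE-CX, 7 of 8 POST-CX, 8 of 10 CRPC, 9 of 12 ENZS and 13 of 15 ENZR tumours, so no fold is given. LGR4, the related receptor, was present instead, with medians of 8.00 TPM in PRE-CX and 15.6 in ENZS and a log2 difference of 0.81 (SE 0.27 and adjusted p 0.0151 by limma). The R-spondin genes RSPO1, RSPO2 and RSPO3 had a median of 0 in each group, and the median of RSPO4 was at most 0.085 TPM in a group.

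AXIN2, a scaffold of the complex that destroys β-catenin, was higher in ENZS than in PRE-CX. It ranged from 1.69 to 3.56 TPM in PRE-CX (median 2.05), from 0.67 to 3.76 in POST-CX (median 2.53), from 1.49 to 4.02 in CRPC (median 2.32), from 2.61 to 4.24 in ENZS (median 3.63) and from 0.27 to 4.99 in ENZR (median 3.43). All 12 ENZS tumours lay above the PRE-CX median and 7 above its range, while 1 tumour of POST-CX and 1 of CRPC lay above that range and 2 of each below it. The log2 difference between ENZS and PRE-CX was 0.54 (SE 0.18 and adjusted p 0.0114 by limma) and passed under each of the 8 alternatives. Between ENZR and PRE-CX it was 0.36 (SE 0.17 and adjusted p 0.104 by limma), and 14 of 15 ENZR tumours lay above the PRE-CX median. The exception was mouse 87, and without it the difference was 0.47 (adjusted p 0.00316, limma). With rescaled TPM it was 0.50 (adjusted p 0.000208 by limma, and 1.62e-05 to 0.251 across the 8 alternatives).

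NKD1, which binds Dishevelled and dampens the signal, was low in all groups. It ranged from 0.13 to 0.82 TPM in PRE-CX (median 0.43), from 0.24 to 0.93 in POST-CX (median 0.72), from 0.40 to 1.13 in CRPC (median 0.92), from 0.56 to 1.24 in ENZS (median 0.92) and from 0.05 to 1.38 in ENZR (median 0.78). No PRE-CX or POST-CX tumour reached 1 TPM, so NKD1 passed the filter only through 2 CRPC, 3 ENZS and 6 ENZR tumours. All 12 ENZS tumours lay above the PRE-CX median and 10 above its range. The log2 difference from PRE-CX was 0.40 in ENZS (SE 0.12 and adjusted p 0.00533 by limma) and 0.34 in ENZR (SE 0.11 and adjusted p 0.0188 by limma), sizes that the pseudocount of 1 TPM understates. When each tumour was centred on the median of its tested genes, both calls were lost, at 0.15 (adjusted p 0.384, limma) and 0.28 (adjusted p 0.0694, limma), and over the alternatives the adjusted p ranged from 8.41e-05 to 0.384 in ENZS and from 9.48e-06 to 0.0694 in ENZR. The ENZR call was also lost on leaving out PRE-CX mouse 58 (0.29, limma adjusted p 0.0544).

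LEF1, a DNA-binding partner of β-catenin, was higher in ENZS than in both PRE-CX and CRPC. It ranged from 0.80 to 2.95 TPM in PRE-CX (median 1.15), from 0.65 to 5.17 in POST-CX (median 2.20), from 0.41 to 2.42 in CRPC (median 1.28), from 1.48 to 11.28 in ENZS (median 2.63) and from 0.39 to 6.06 in ENZR (median 2.87). No CRPC tumour lay above the PRE-CX range, whereas 5 of 12 ENZS and 7 of 15 ENZR tumours did. All 12 ENZS tumours lay above the CRPC median and 8 above the CRPC range. LEF1 was higher in ENZS than in PRE-CX by 0.90 (log2, SE 0.24 and adjusted p 0.00222 by limma) and higher in ENZS than in CRPC by 0.94 (SE 0.23 and adjusted p 0.00614 by limma), and both passed under each of the 8 alternatives. The difference between ENZR and PRE-CX was 0.60 (SE 0.23 and adjusted p 0.0396 by limma). It was lost with no expression filter (adjusted p 0.0755, limma, and 0.000648 to 0.0755 across the 8 alternatives), and when any of 14 tumours was left out: PRE-CX mice 4, 5, 9, 58, 62 and 112 and ENZR mice 21, 65, 72, 75, 95, 98, 103 and 105 (log2 differences 0.53 to 0.61, limma adjusted p 0.0515 to 0.0758). Between ENZR and CRPC it was 0.65 (SE 0.22 and adjusted p 0.0945 by limma), and 0.74 without ENZR mouse 87 (adjusted p 0.0271, limma).

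TCF7, the LEF1 relative best known from T cells, was low in all groups. It ranged from 0.31 to 0.73 TPM in PRE-CX (median 0.45), from 0.26 to 0.72 in POST-CX (median 0.38), from 0.14 to 0.72 in CRPC (median 0.305), from 0.02 to 1.55 in ENZS (median 0.255) and from 0 to 0.77 in ENZR (median 0.37). In ENZS, 9 of 12 tumours lay below the PRE-CX range and 2 above it, mouse 17 at 1.55 TPM and mouse 49 at 0.87 TPM. With no expression filter it passed in none of the comparisons (limma adjusted p 0.394 between ENZS and PRE-CX). ENZS mouse 17 also held the highest WNT5A of its group, and mouse 49 the highest LEF1, at 11.28 TPM. TCF7L2, another factor of this family, was higher than TCF7, with medians of 2.06 TPM in PRE-CX and 4.78 in ENZS and a log2 difference of 0.99 (SE 0.22 and adjusted p 0.000212 by limma).

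The comparisons asked how the genes stood at each stage of treatment. Each castrated or treated group was set against the same PRE-CX tumours, so these 4 comparisons share controls. Between POST-CX and PRE-CX, limma passed 0 of the 7 tested genes, against 1.66% of all 17131 tested genes higher and 2.67% lower. At an unadjusted p under 0.05, 1 of the 7 passed (ROR1). With rescaled TPM 5 of the 7 passed, NKD1, LEF1, RNF43 and ZNRF3 higher and ROR1 lower, with limma adjusted p of 0.00242 to 0.0483. Of all 17593 genes tested in that setting, 3631 were higher and 989 lower. The split of all genes moved with the scaling too: 38.3% of those that passed were higher as deposited and 78.6% with rescaled TPM, and the median difference over every tested gene went from -0.05 to 0.16 on the log2 scale. The 2 tumours under 50% human bear on this count, since without them 1 gene passed (RNF43), or 2 with rescaled TPM as well (RNF43 and ZNRF3). Without them 1799 of all 17127 genes were higher and 747 lower, and with rescaled TPM as well 3307 of all 17519 were higher and 779 lower.

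Between CRPC and PRE-CX, RNF43 was higher and ROR1 lower, with 5.55% of all genes higher and 1.87% lower. Rescaled TPM, or leaving out the 2 tumours under 50% human, added NKD1 (limma adjusted p 0.0323 and 0.0219) and ZNRF3 (limma adjusted p 0.0146 and 0.00673). With rescaled TPM 2492 of all 17593 genes were higher and 1033 lower. Without those tumours 2706 of all 17127 genes were higher and 763 lower. Of all genes that passed, 74.8% were higher as deposited and 53.8% after median centring. Between CRPC and POST-CX, which asks about relapse after castration, 0 of the 7 genes passed in limma, against 0% of all genes higher and 0% lower, with 1 of the 7 at an unadjusted p under 0.05 (LEF1, log2 difference -0.53, 95% interval -1.05 to -0.01). Rescaled TPM likewise passed 0 of the 7. Limma with array weights, which down-weight outlying tumours, passed 2 there, LEF1 lower by 0.71 and ROR1 lower by 0.44. Of all 17131 genes in that setting, 516 were higher and 1204 lower, so the calls of these and of many other genes depend on that choice.

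Between ENZS and PRE-CX, 6 of the 7 tested genes were higher and 1 lower, against 30.3% of all genes higher and 8.18% lower. The differences of the higher genes ran from 0.40 (NKD1) to 1.36 (WNT5A), beside a median of 0.26 over all tested genes. NKD1 entered the test only through castrated or treated tumours, and 3 of the 10 genes were not tested, so these counts do not stand for all 10 genes. Of all genes that passed, 78.7% were higher as deposited and 49.0% after median centring, and under that centring NKD1 and WNT5A no longer passed while the other 5 did. Between ENZR and PRE-CX, RNF43, ZNRF3, LEF1 and NKD1 were higher and ROR1 lower, against 17.6% of all genes higher and 11.5% lower. The median over all genes was 0.07. Of all genes that passed there, 60.6% were higher as deposited and 76.4% with rescaled TPM.

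**Figure D3:**
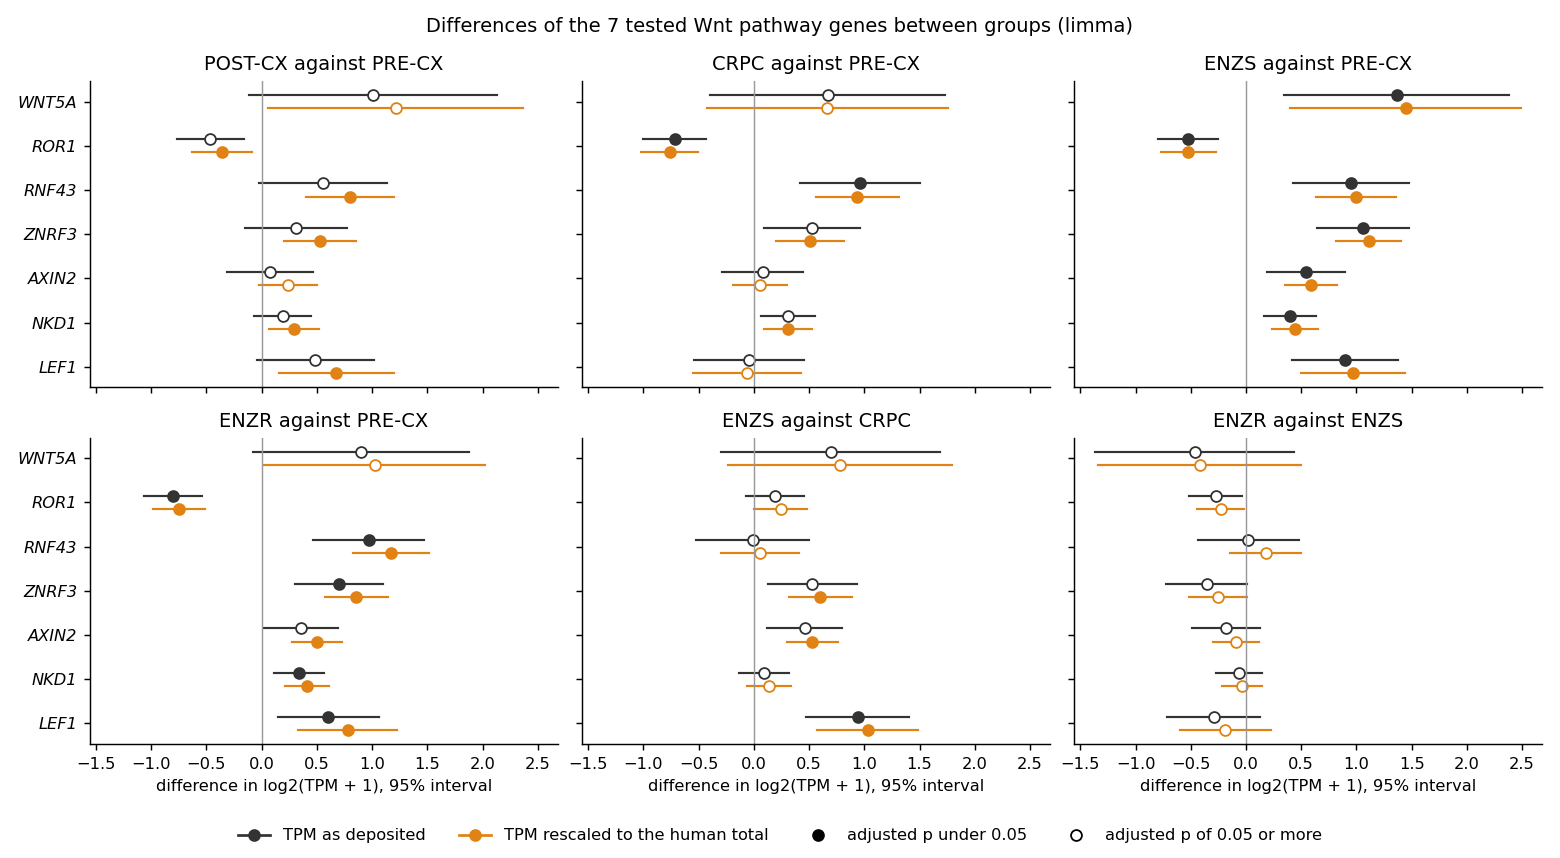
Difference in log2(TPM + 1) with its 95% interval (horizontal axes) for the 7 tested genes in 6 comparisons, from limma, for TPM as deposited (black) and rescaled to the human total (orange); filled points have an adjusted p under 0.05. In ENZS against PRE-CX all 7 black points are filled, from -0.53 for ROR1 to 1.36 for WNT5A, and in ENZR against ENZS none are.

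The ENZS tumours were taken at a PSA low point on the drug, and the CRPC tumours at PSA recovery or 1000 mm3 without it. Drug and stage of sampling therefore differ together between these groups and cannot be told apart. Between ENZS and CRPC, LEF1 was the only gene of the 7 that passed, against 6.21% of all genes higher and 2.71% lower. AXIN2 and ZNRF3 were higher by 0.46 (SE 0.17 and adjusted p 0.0775 by limma) and 0.53 (SE 0.20 and adjusted p 0.0888 by limma). Both passed without the 2 tumours under 50% human (limma adjusted p 0.00309 and 0.00316), and with rescaled TPM (0.000470 and 0.00119). In the first setting 3345 of all 17127 genes were higher and 1236 lower, and in the second 5519 of all 17593 higher and 1128 lower. Without ENZR mouse 87 alone AXIN2 passed at 0.0121 and ZNRF3 at 0.00756 by limma, and AXIN2 also passed without CRPC mouse 89 (adjusted p 0.0410, limma). RNF43 showed a difference of -0.01 and a 95% interval of -0.52 to 0.50. Of all genes that passed, 69.6% were higher as deposited, 83.0% with rescaled TPM and 44.2% after median centring.

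Between ENZR and ENZS, which asks about relapse on the drug, 0 of the 7 genes passed in limma, against 0% of all genes higher and 0.0175% lower. With rescaled TPM 0 of the 7 passed and 1 was at an unadjusted p under 0.05, and with array weights 0 were at either. As deposited, 1 of the 7 was at an unadjusted p under 0.05 (ROR1, log2 difference -0.27, 95% interval -0.51 to -0.04). The 95% intervals of the others were -0.49 to 0.12 for AXIN2, -0.27 to 0.14 for NKD1, -0.71 to 0.13 for LEF1, -0.44 to 0.48 for RNF43, -0.72 to 0.01 for ZNRF3 and -1.36 to 0.43 for WNT5A. Changes within these intervals were not excluded with 12 and 15 tumours, and the intervals are not adjusted for the number of genes tested. Between ENZR and CRPC, the relapsed tumours with and without the drug, 0 of the 7 passed in limma, against 0.584% of all genes higher and 2.52% lower, with 1 of the 7 at an unadjusted p under 0.05 (LEF1). With rescaled TPM 3 passed, AXIN2 higher by 0.44, LEF1 by 0.84 and ZNRF3 by 0.35, with limma adjusted p of 0.00348, 0.00455 and 0.0497. Of all 17593 genes tested in that setting, 3722 were higher and 959 lower. Of all genes that passed, 18.8% were higher as deposited and 79.5% with rescaled TPM.

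The relapse step on the drug (ENZR minus ENZS) was also set against the step from POST-CX to CRPC. In limma 0 of the 7 genes passed, against 0.187% of all genes in either direction, and 0 were at an unadjusted p under 0.05. ZNRF3 came nearest, at -0.58 (SE 0.29, 95% interval -1.16 to 0.0043, limma adjusted p 0.258). Array weights left 0 passed and 2 at an unadjusted p under 0.05.

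The wider pathway was read from lists of 105 Wnt genes, the 10 included, of which 66 passed the expression filter and 30 never reached 1 TPM in any tumour. Of the 66, 29 were higher and 5 lower between ENZS and PRE-CX, against 30.3% and 8.18% of all genes, with a median log2 difference of 0.41 beside 0.26 over all genes. Between ENZR and PRE-CX 15 were higher and 6 lower, against 17.6% and 11.5% of all genes, with a median of 0.28 beside 0.07. Between CRPC and PRE-CX 4 were higher and 4 lower (5.55% and 1.87% of all genes), and between POST-CX and PRE-CX 1 was higher and 2 lower (1.66% and 2.67% of all genes). Between ENZS and CRPC 10 were higher and 1 lower (6.21% and 2.71% of all genes), between ENZR and CRPC 2 were higher and 0 lower (0.584% and 2.52% of all genes), and in limma 0 passed between CRPC and POST-CX or between ENZR and ENZS. These counts depend on the scaling. With rescaled TPM, of 68 genes tested, 26 were higher and 3 lower in POST-CX, 12 and 4 in CRPC, 46 and 7 in ENZS and 41 and 6 in ENZR, each against PRE-CX. Against CRPC they were 34 and 2 in ENZS and 21 and 2 in ENZR. Of all 17593 genes tested with rescaled TPM, 3631 were higher and 989 lower in POST-CX than in PRE-CX. In CRPC these numbers were 2492 and 1033, in ENZS 8364 and 2386 and in ENZR 7847 and 2427. Set against CRPC, 5519 of all genes were higher and 1128 lower in ENZS, and 3722 and 959 in ENZR.

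The secreted side of the pathway was sparse. Of 19 Wnt ligand genes 8 passed the filter, and 5 of these were higher in ENZS than in PRE-CX, where 30.3% of all genes were. WNT2B, a canonical ligand, went from a median of 0.32 TPM in PRE-CX to 4.54 in ENZS and 2.94 in ENZR, with log2 differences of 1.84 (SE 0.27 and adjusted p 1.63e-07 by limma) and 1.54 (SE 0.26 and adjusted p 4.86e-06 by limma). As WNT2B reached 1 TPM in 1 of 9 PRE-CX, 11 of 12 ENZS and 13 of 15 ENZR tumours, it passed the filter mainly through tumours where it was higher. It was also named because its differences were among the largest that passed, and its test results carry both limits. WLS, which carries Wnt ligands to the cell surface, was higher in ENZS by 1.39 (adjusted p 3.93e-05, limma). Of 14 secreted inhibitors and their co-receptors only KREMEN1 and KREMEN2 passed the filter, and 11 never reached 1 TPM. KREMEN2, a receptor for Dickkopf inhibitors, was lower than in PRE-CX in CRPC, ENZS and ENZR, by -0.53, -0.50 and -0.84 on the log2 scale. DKK1 and WIF1 had a median of 0 TPM in each group.

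Receptors passed the filter in 15 of 16 cases and moved in both directions. Between ENZS and PRE-CX 6 were higher and 3 lower, ROR2 and ROR1 among them, against 30.3% and 8.18% of all genes. Between ENZR and PRE-CX 3 were higher and 4 lower, against 17.6% and 11.5% of all genes. With rescaled TPM 10 were higher and 4 lower in ENZS, and 9 higher and 4 lower in ENZR, so the balance in ENZR turned with the scaling. Of all 17593 genes tested in that setting, 8364 were higher and 2386 lower in ENZS, and 7847 and 2427 in ENZR. FZD5, a Frizzled receptor, fell from a median of 13.2 TPM in PRE-CX to 6.34 in POST-CX, at a log2 difference of -1.26 (SE 0.29 and adjusted p 0.00409 by limma), and was lower in CRPC by -1.04 (adjusted p 0.0109, limma) and in ENZR by -1.03 (adjusted p 0.00123, limma). In ENZS, with a median of 9.53 TPM and 5 of 12 tumours below the PRE-CX range, it did not pass, at -0.60 (adjusted p 0.0655, limma). FZD8 was lower in POST-CX by -0.64 (adjusted p 0.0266, limma), in CRPC by -0.66 (adjusted p 0.00933, limma), in ENZS by -0.43 (adjusted p 0.0336, limma) and in ENZR by -0.51 (adjusted p 0.0103, limma). The co-receptor LRP6 was higher in ENZS by 0.95 (adjusted p 0.000393, limma) and in ENZR by 0.76 (adjusted p 0.00396, limma).

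Inside the cell, 14 of 15 genes of the transducers and the destruction complex passed the filter. Between ENZS and PRE-CX 3 of these were higher (AXIN2, APC and CTNNB1) and 0 lower, against 30.3% and 8.18% of all genes, and in ENZR 0 passed in limma either way, against 17.6% and 11.5%. With rescaled TPM 10 were higher in ENZS and 8 in ENZR, where 8364 and 7847 of all 17593 genes were higher. CTNNB1, which encodes β-catenin, had medians of 119.78 TPM in PRE-CX and 204.01 in ENZS and a log2 difference of 0.66 (SE 0.23 and adjusted p 0.0170 by limma). Of 13 nuclear factors 10 passed the filter, and 5 were higher in ENZS than in PRE-CX (LEF1, TCF7L2, BCL9L, TLE1 and TLE2), against 30.3% of all genes. TLE1, a co-repressor that binds TCF and LEF factors, was higher in ENZS than in CRPC by 1.18 (SE 0.27 and adjusted p 0.00320 by limma).

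Feedback genes and targets beyond the 10 went different ways. APCDD1, a membrane inhibitor of the pathway, ranged from 0.71 to 2.86 TPM in PRE-CX (median 1.47), from 1.83 to 8.64 in POST-CX (median 2.90), from 3.63 to 21.41 in CRPC (median 8.43), from 6.06 to 119.61 in ENZS (median 28.7) and from 5.82 to 97.22 in ENZR (median 21.1). Every CRPC, ENZS and ENZR tumour lay above the PRE-CX range. The share of all genes separated in this way was not counted, and APCDD1 was named because its differences were among the largest that passed. Its log2 difference from PRE-CX was 1.80 in CRPC (SE 0.41 and adjusted p 0.00260 by limma), 3.54 in ENZS (SE 0.39 and adjusted p 3.48e-10 by limma) and 3.16 in ENZR (SE 0.38 and adjusted p 2.57e-09 by limma), and APCDD1 and ROR2 were the 2 Wnt genes that passed between ENZR and CRPC, at 1.37 and 0.86. MYC, a transcription factor and a target in several tissues, went the other way, from a median of 98.2 TPM in PRE-CX to 31.7 in ENZS and 54.6 in ENZR, with log2 differences of -1.72 (SE 0.41 and adjusted p 0.000609 by limma) and -1.28 (SE 0.39 and adjusted p 0.00952 by limma). CCND1, a cyclin and often named as a target, was at 78.6 TPM in PRE-CX and 89.6 in ENZS, a difference of 0.15 that did not pass (adjusted p 0.717, limma). The proliferation marker MKI67, given as a check, was lower in ENZS by -2.29 (SE 0.32 and adjusted p 6.52e-08 by limma), and FKBP5, an androgen-induced gene, by -2.91 (SE 0.36 and adjusted p 6.67e-09 by limma).

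**Figure D4:**
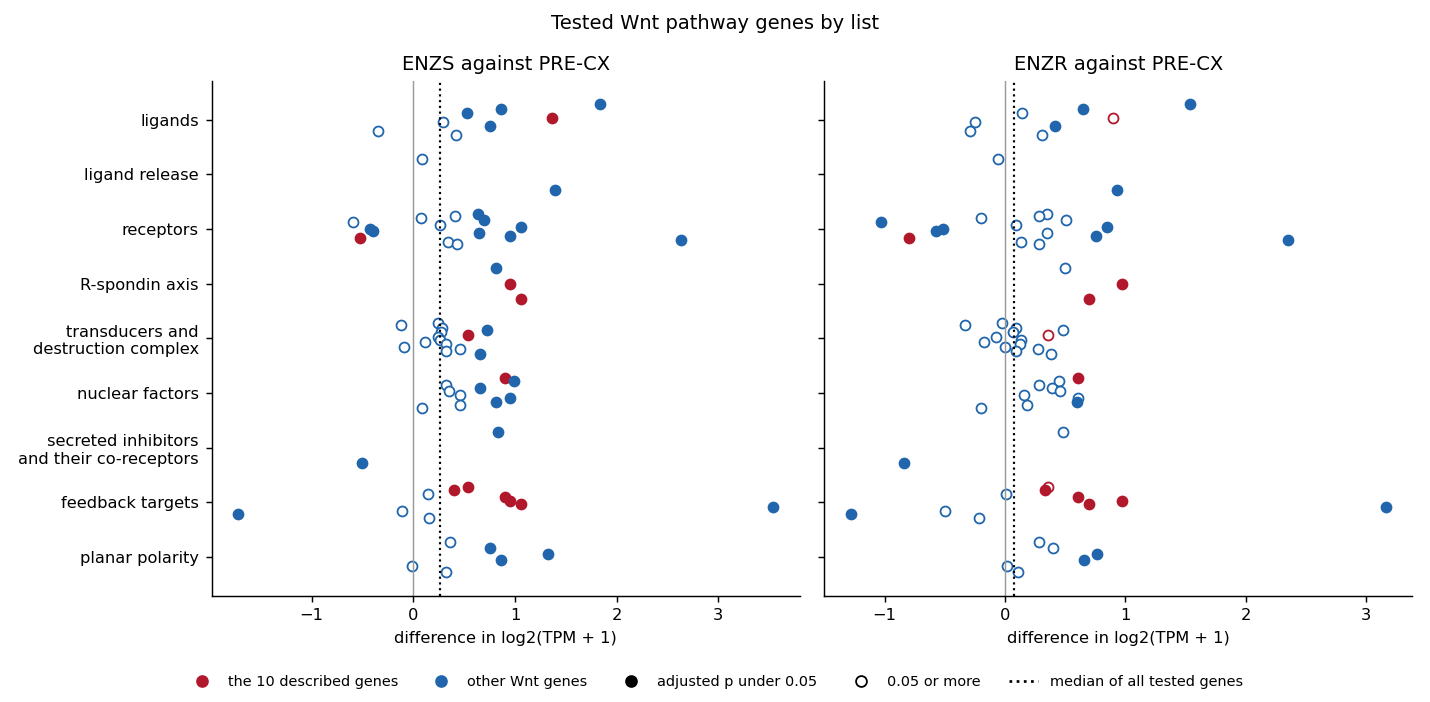
Difference in log2(TPM + 1) (horizontal axes) of each tested Wnt gene by list (vertical axis) for ENZS and ENZR against PRE-CX, with the 10 described genes in red, other genes in blue, and filled points at an adjusted p under 0.05 in limma. The dotted line is the median of all tested genes, 0.26 in ENZS and 0.07 in ENZR; APCDD1 is the point at the far right of the feedback targets and MYC the point at the far left, and some genes stand in 2 lists.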

How the data were processed

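RNA was extracted by the authors from 54 tumours and sequenced as strand-specific polyA libraries with paired ends. Per the submitters' processing notes, the authors ran FastQC 0.11.9, trimmed reads with Trim Galore 0.6.5, aligned them with STAR 2.7.2b to a joint human (GRCh38) and mouse (GRCm38) reference, and quantified with RSEM 1.3.3. The deposited values are TPM per human gene symbol. Mouse genes were not analysed here. The human values of a tumour sum to less than 1000000, and because TPM keep no read depth, the depth of single tumours is unknown and no counting interval is given. All 54 columns were used.

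A gene needed 1 TPM in no fewer than 8 tumours, and the 17131 that met this were tested on log2(TPM + 1) with limma 3.58.1 in R 4.3.3, in 1 fit of 5 group means with the trend option. The p-values were two-sided and adjusted by the Benjamini-Hochberg method over all tested genes within each of 8 comparisons and for the difference of the relapse steps, and a gene passed at an adjusted p under 0.05. Differences on this scale understate the change of genes near or below 1 TPM, and the p-values measure the spread between mice carrying the same cell line. The script was tested on simulated data. Alternatives were a pseudocount of 0.1 TPM, no filter, rescaled TPM, median centring, no trend, array weights, leaving out the 2 tumours under 50% human, each tumour left out in turn, and, chosen after seeing the data, rescaling together with leaving out those 2 tumours. Beyond the 10 genes, the text names the genes of the Wnt lists with the highest and lowest differences among those that passed, at most 3 each way per comparison, and the FZD, LRP and TCF7L genes, CTNNB1, APC, MYC and CCND1 for their levels, the genes most and least like each tested gene across tumours, and KLK3, FKBP5 and MKI67 as checks, while LGR4, WLS, DKK1, WIF1, KREMEN1, BCL9L, TLE2 and the R-spondin genes were named after their values were seen. The 10 genes and the lists were chosen with earlier results of these data known. Promoters were matched by symbol, and figures were drawn with matplotlib. Of the genes most like AXIN2, 1 is not reported here.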

Additional observations from a re-analysis of the deposited data

Results flagged for a closer look

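In 30 sets of values (each of the 10 genes in the groups of 8 to 10 tumours), Dixon's criterion was applied at the 95% level. It compares the gap between the highest or lowest tumour and its nearest neighbour with the whole range. Chance alone passes it in about 1 of 20 sets if the values are normally distributed. TPM were used without a log here, and values such as those of WNT5A and LGR5 were skewed or mostly 0. That rate therefore does not apply to these sets, and the flags only point to single tumours. The criterion was passed in 10 sets, in each case by the highest tumour. WNT5A stood out in PRE-CX mouse 111 at 14.18 TPM (nearest tumour 2.90) and in POST-CX mouse 99 at 39.77 TPM (nearest 5.44). WNT11 stood out in POST-CX mouse 92 at 0.64 TPM (nearest 0.26) and in CRPC mouse 107 at 1.41 TPM (nearest 0.41). AXIN2 stood out in PRE-CX mouse 112 at 3.56 TPM (nearest 2.56) and in CRPC mouse 89 at 4.02 TPM (nearest 2.71). LEF1 stood out in PRE-CX mouse 111 at 2.95 TPM (nearest 1.76), so that mouse 111 held the highest WNT5A and the highest LEF1 of its group. TCF7 stood out in CRPC mouse 81 at 0.72 TPM (nearest 0.41), ROR1 in CRPC mouse 29 at 1.55 TPM (nearest 1.01), and LGR5 in POST-CX mouse 99 at 0.02 TPM, where the other 7 tumours were listed at 0. The groups ENZS and ENZR, with more than 10 tumours, were not looked at in this way. No tested gene of the 10 differed between the relapse steps at an adjusted p under 0.05 in limma, and 0 of 7 did at an unadjusted p under 0.05.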

How the results depend on the processing

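Of 63 results (7 tested genes in 9 contrasts), 15 passed as deposited, 11 of these passed under each of the 8 alternatives, and all 15 kept their sign, while 18 that did not pass as deposited passed under at least 1 alternative. Each series of counts runs over POST-CX, CRPC, ENZS and ENZR against PRE-CX, then CRPC against POST-CX, ENZS against CRPC, ENZR against ENZS, ENZR against CRPC, and the difference of the relapse steps. As deposited, 0, 2, 7, 5, 0, 1, 0, 0 and 0 of the 7 genes and 741, 1272, 6590, 4981, 0, 1529, 3, 531 and 32 of all genes passed. With rescaled TPM these were 5, 4, 7, 6, 0, 3, 0, 3 and 0 genes of the 7, and 4620, 3525, 10750, 10274, 11, 6647, 0, 4681 and 35 of all. With median centring they were 2, 3, 5, 5, 0, 3, 0, 2 and 0, and 4114, 3514, 9089, 8801, 31, 3994, 1, 3256 and 516. With array weights they were 6, 4, 7, 7, 2, 3, 0, 3 and 0, and 7830, 6327, 11173, 10879, 1720, 6002, 1, 4773 and 1317. Without the 2 tumours under 50% human they were 1, 4, 7, 6, 0, 3, 0, 2 and 0, and 2546, 3469, 9910, 9134, 9, 4581, 0, 2225 and 96. With both rescaling and those tumours left out, an alternative chosen after seeing the data, they were 2, 4, 7, 7, 0, 3, 0, 3 and 0, and 4086, 3775, 10898, 10429, 40, 6905, 2, 4934 and 88. A pseudocount of 0.1 TPM passed the same numbers of the 7 genes as deposited, with 824, 1351, 6091, 4504, 0, 1078, 0, 442 and 21 of all genes. With no filter 0, 2, 7, 4, 0, 1, 0, 0 and 0 of the 10 genes passed, with WNT11 in place of WNT5A in ENZS, and 840, 1267, 8851, 6182, 0, 1651, 0, 261 and 3 of all 39909. With no trend the numbers of the 7 genes were those as deposited, with 0 of all genes between ENZR and ENZS. Leaving out each of the 54 tumours in turn gave 0 to 1, 2 to 4, 6 to 7, 3 to 6, 0, 1 to 3, 0, 0 to 1 and 0 of the 7 genes, and 554 to 2017, 940 to 2520, 5917 to 8678, 4395 to 7797, 0 to 63, 1034 to 3179, 0 to 6, 278 to 1117 and 6 to 265 of all genes. The cause of these shifts was not tested. No paired analysis was possible because no mouse number is shared between groups. The files give no read depth, so levels near 0 cannot be bounded by counting error.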

Other observations

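The genes whose values moved most like each tested gene between tumours of the same group were listed by Pearson's r of the deviations from the group mean of log2(rescaled TPM + 1), over 54 tumours and 17131 genes. The tumours share a cell line and the human total of each tumour enters every value, so the correlations describe these samples and carry no p-value. For ZNRF3 the most alike were WDR35 (r 0.843), FRG1BP (r 0.822) and PODXL2 (r 0.820), and the least alike TXNDC17 (r -0.665). For NKD1 they were RAPGEF1 (r 0.802), TBC1D16 (r 0.771) and RALGPS2 (r 0.730), and ENY2 (r -0.566). For RNF43 they were MAP2K5 (r 0.744), CGNL1 (r 0.703) and DNMBP (r 0.694), and C2orf76 (r -0.590). For AXIN2 they were C1orf115 (r 0.713) and LLGL1 (r 0.702), and the ribosomal protein gene RPS13 (r -0.586).

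For LEF1 the most alike were FAM20C (r 0.698), C15orf65 (r 0.677) and LFNG, a modifier of Notch receptors (r 0.673), and the least alike PDXP (r -0.604). For WNT5A they were SMYD2 (r 0.664), the growth factor gene IGF1 (r 0.662) and HAGLR (r 0.659), and SCPEP1 (r -0.629). For ROR1 they were SEL1L3 (r 0.706), SEC31A (r 0.650) and AL031587.5 (r 0.642), and AC016876.2 (r -0.507). Among the 7 genes themselves r ran from -0.188 (LEF1 with RNF43) to 0.572 (AXIN2 with ZNRF3) over 21 pairs.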
